A study of Mus musculus with 461 samples.

Results

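Nanog (ENSMUSG00000012396) was followed, as 1 gene of the 31673 in the count table, in 461 single mouse cells, sampled on 6 days of the course called 7F in the sample titles (days 0, 1, 3, 4, 5 and 7). The member was set by its symbol and not by a limit on its values, though earlier results of these data were known. Its level, the share of cells that held it and its rank correlation with every other gene were taken within each day and title prefix. The starting cells were embryonic fibroblasts of OG2 transgenic mice, a line that carries a green fluorescent reporter of Oct4 (Pou5f1) and whose mixed strain is given as 129SVJ (1/2), C57B6 (3/8) and CBA (1/8). They were kept in medium with 10% serum, and during reprogramming they grew in iCD1, a chemically defined medium. Every cell of the course was labelled 7F, day 0 included, so no cell without the 7 factors was available as a control. Which genes make up 7F is not in the labels. As published, the cocktail holds Nanog with Esrrb, Sall4, Glis1, Jdp2, Kdm2b (also called Jhdm1b) and Map2k6 (also called Mkk6).

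Single cells were captured on the Fluidigm C1 system, which makes 1 full-length cDNA library per cell. Titles begin with b1, b2 or b3, a prefix whose meaning is not labelled, and the cells of 1 day and 1 prefix are called a set here. Day 0 had 20 cells of b1 and 54 of b2, day 1 had 58 of b2, day 3 had 61 of b1 and 58 of b2, and day 4 had 59 of b3. Day 5 was mostly b2 (79 cells, against 5 in b1), as was day 7 (65 against 2). A cell held between 0.319 and 7.00 mega counts (median 2.50), and the day 4 set was the shallowest with a median of 0.983 mega counts. No 2 cells had identical profiles. The day 0 cells fitted their label, since 12 and 13 of 15 fibroblast markers passed 1 TPM in at least 25% of the cells of b1 and b2, while the 10 pluripotency markers summed to at most 3.32 and 8.27 TPM in any cell. Prefix b3 occurred at day 4 only, so that day and prefix cannot be told apart, and days 5 and 7 rested almost wholly on b2.

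Nanog is a homeodomain transcription factor of the inner cell mass and of embryonic stem cells. There it acts with Oct4 and Sox2, which bind its promoter, and it helps to keep the naive pluripotent state, while embryonic fibroblasts do not normally express it. In a cocktail that includes Nanog, its transcripts can come from the introduced gene as well as from the chromosomal one. The deposited gene counts do not separate these sources. The annotation also holds processed Nanog pseudogenes, with which Nanog may share reads.

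The chromosomal gene lies on mouse chromosome 6. Its promoter window is shown because it holds the letters of an Oct4 site beside those of a Sox2 site. The genes of these factors, Pou5f1 and Sox2, had positive rank correlations with Nanog over all cells of the late b2 sets. Within the late cells with 10 TPM or more of Pou5f1 the values were lower. They were 0.223 and 0.232 at day 5 and −0.0029 and 0.0276 at day 7. The window is RefSeq sequence of GRCm38.p6, plus strand, chr6:122707239-122707538, from 250 bases before to 50 after an annotated start.
Nanog promoter: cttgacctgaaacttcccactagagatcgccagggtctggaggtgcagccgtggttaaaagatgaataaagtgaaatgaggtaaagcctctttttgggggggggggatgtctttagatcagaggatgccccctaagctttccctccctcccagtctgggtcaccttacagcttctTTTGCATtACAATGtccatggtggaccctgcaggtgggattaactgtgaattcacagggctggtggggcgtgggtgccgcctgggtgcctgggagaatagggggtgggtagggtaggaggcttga
The capitals mark an octamer core, TTTGCAT, and a Sox core, ACAATG, with 1 base between them and no overlap. Both strands were searched. Over all 32851 promoter windows of the table, 4.63% held the octamer core, 12.6% the Sox core and 0.813% both. Promoter windows of 26 of the 38 network genes defined below were in the table. Counted by gene, with a match in any of its windows, 2 held the octamer core, 2 the Sox core and 0 both. Over all 27025 genes with a window the shares counted in this way were 5.24%, 14.3% and 0.944%. These matches are letters in a window, and binding was not measured.

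Nanog was abundant from the first day. In TPM (transcripts per mega transcripts, a per-length scale set within each cell by the authors), the b1 cells of day 0 had a lowest value of 1.28, a median of 205 and a highest of 1127, and the b2 cells had 0.19, 242 and 1516. At day 1 the values were 4.26, 237 and 1773. At day 3 the b1 cells had 2.54, 478 and 3321, and the b2 cells had 6.71, 176 and 1576. Medians of these sets thus lay between 176 and 242 TPM, apart from that of the b1 cells of day 3. At day 4 the lowest, median and highest were 4.53, 245 and 2339 TPM. At day 5 the b2 cells had 0.00, 36.6 and 573 TPM, with quartiles at 2.08 and 218. At day 7 the b2 cells had 0.00, 233 and 912 TPM, with quartiles at 14.2 and 408. At 10 TPM or more were 47 of 79 cells at day 5 (59.5%) and 49 of 65 at day 7 (75.4%), against 87% to 98.4% of the cells in the 6 earlier sets.

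The 5 cells of day 5 b1 held 91.8, 163, 240, 322 and 420 TPM, and the 2 cells of day 7 b1 held 36.7 and 283. None of these 7 cells was without Nanog. They were too few to form a set of their own in the tests.

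Detection was lower in the late sets as well. With 1 TPM as the limit, Nanog was found in all 20 cells of day 0 b1 and in 51 of 54 cells of b2 (94.4%, exact binomial 95% interval 84.6 to 98.8%). It was found in all cells of day 1, of both day 3 sets and of day 4. At day 5 it was found in 66 of 79 b2 cells (83.5%, 73.5 to 90.9%), and at day 7 in 53 of 65 (81.5%, 70 to 90.1%). A higher limit of 100 TPM was passed by 33 of 79 b2 cells at day 5 (41.8%) and 41 of 65 at day 7 (63.1%), against 39 of 58 b2 cells at day 3 (67.2%). Intervals here cover the counting of cells only, and cells of 1 set are not replicates of a day.

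**Figure D1:**
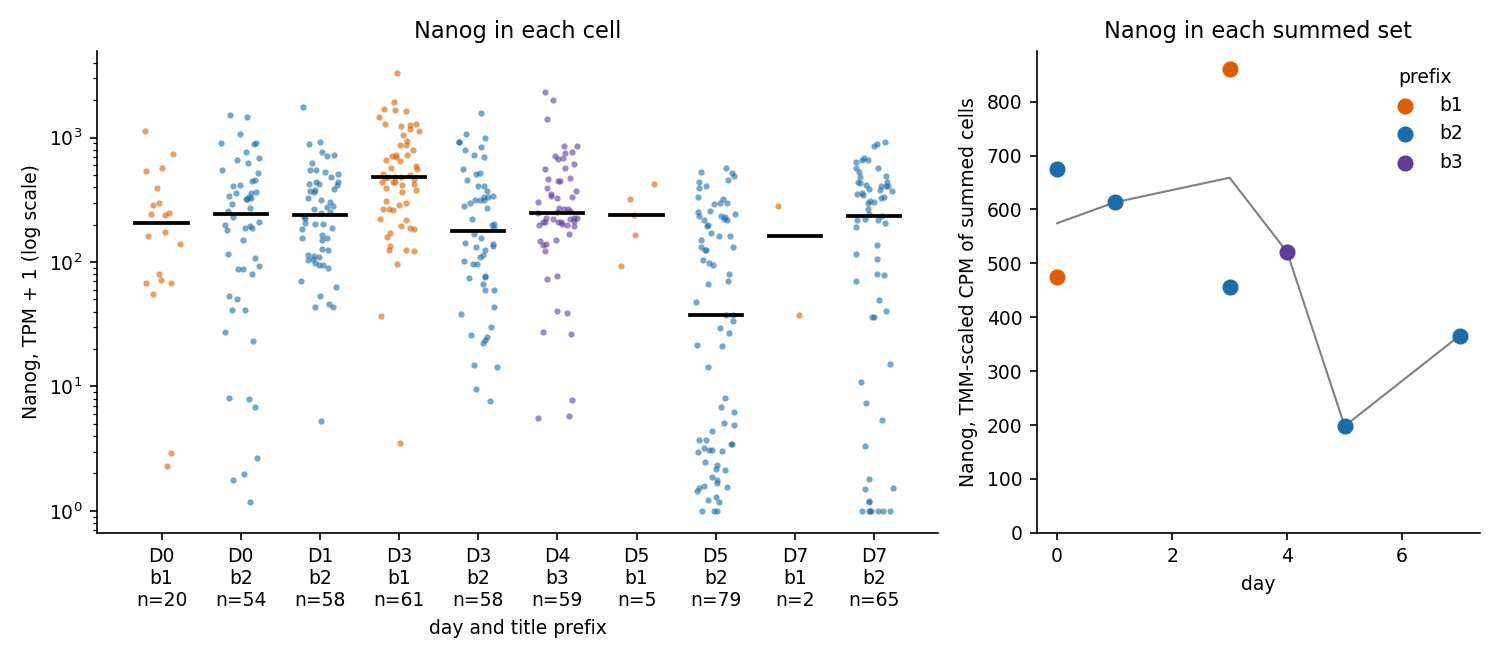
Nanog by day and title prefix. Left, TPM plus 1 of each cell on a log axis, with 1 point per cell and a bar at the median of the set, which falls to 36.6 TPM at day 5 b2. Right, TMM-scaled CPM of the sums of the 8 larger sets (at least 10 cells), with a line through the mean of each day, where the 2 sets of day 3 lie at 861 and 456 CPM.

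For tests across days the counts of each set were summed, so that the set and not the cell was the replicate. CPM here are counts per mega counts after TMM scaling. Nanog was at 474 and 675 CPM in the b1 and b2 sets of day 0, at 613 at day 1, at 861 and 456 in the b1 and b2 sets of day 3, at 521 at day 4, at 198 at day 5 and at 366 at day 7. The day 5 and day 7 sets were lower than each of the 6 earlier sets. The gap between the 2 sets of day 3 was larger than that between the day 7 set and the lower day 3 set.

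Nanog did not pass the test up to day 4. The log2 fold change against day 0 was 0.09 ± 0.45 (SE) at day 1, 0.20 ± 0.37 at day 3 and −0.14 ± 0.45 at day 4, with adjusted p from 0.959 to 1 in edgeR's quasi-likelihood test with Benjamini-Hochberg adjustment over 22378 genes. Over all genes 1.18%, 3.14% and 3.03% passed in these comparisons. The 95% intervals of the Nanog differences ran from −0.79 to 0.98, from −0.52 to 0.92 and from −1.03 to 0.75, so changes of up to about 2-fold lie within or near them.

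At day 5 Nanog fell to 198 CPM, against 574 ± 142 CPM at day 0 (SD, n = 2 sets), a log2 fold change of −1.54 ± 0.49 (edgeR adjusted p = 0.0368), where 4.73% of all genes passed. Against day 3, at 659 ± 286 CPM (n = 2 sets), the fall was −1.73 ± 0.49 (edgeR adjusted p = 0.0289, 1.71% of genes passed). The mean of days 5 and 7 against the mean of days 0, 1 and 3 gave −1.19 ± 0.33 (edgeR adjusted p = 0.00682, 8.78% of genes passed). These 3 calls did not hold under every setting. With all 10 sums, which add the 5 day 5 and 2 day 7 cells of b1, the adjusted p values were 0.444, 0.701 and 0.0777. Without the b1 set of day 3 they were 0.194, 1 and 0.168, and without its b2 set the first 2 were 0.217 and 0.140. In DESeq2 the first 2 comparisons missed the threshold with adjusted p of 0.0730 and 0.0629, and the third passed with 0.0326. Without the cell with most Nanog counts of each set, only the call of day 5 against day 0 was lost (0.0729).

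At day 7 Nanog stood at 366 CPM, a difference of −0.65 ± 0.46 from day 0 that did not pass (edgeR adjusted p = 0.547, 95% interval −1.56 to 0.26, 6.6% of genes passed). Against day 5 the difference was 0.88 ± 0.53, which also did not pass (edgeR adjusted p = 1, 95% interval −0.14 to 1.91, 0.554% of genes passed), and was 0.18 with all 10 sums. Fewer cells with Nanog and less Nanog RNA per cell both lower such a sum. At day 5 fewer cells held Nanog, and the median over all cells, those without it included, was lower. Whether the cells that held Nanog had less of it was not tested. Only days 0 and 3 had 2 sets, so all p-values rest on the spread shared over genes, and the sets may be technical repeats.

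The other cocktail genes set the frame for this course. Jdp2, which encodes an AP-1 repressor, was at 4.76 CPM at day 7, against 407 and 346 CPM in the day 0 sets, a log2 fold change of −6.30 ± 0.68 (edgeR adjusted p = 4.89e-18). Map2k6 encodes a kinase that activates p38 and stood at 58.5 CPM at day 7 against 491 and 674 (−3.31 ± 0.56, edgeR adjusted p = 2.97e-07). It was lowest in the day 4 b3 set, at 3.84 CPM, with 69 CPM at day 5. Esrrb, an orphan nuclear receptor of the naive network, was at 135 CPM against 1304 and 954 (−3.06 ± 0.52, edgeR adjusted p = 3.77e-07). Kdm2b, a CpG-binding demethylase, was at 103 CPM against 333 and 346 (−1.72 ± 0.52, edgeR adjusted p = 0.0198). Sall4, a zinc finger factor, was at 1550 CPM at day 7 against 626 and 711, which did not pass (1.21 ± 0.43, edgeR adjusted p = 0.0640). Glis1, a Krüppel-like zinc finger factor, stayed under 14 CPM in every set and did not pass. Of the 6 factors 4 fell and 0 rose, where 3.05% of all genes fell. With all 10 sums, with the prefix as a block or without either day 3 set 3 fell, and 1 rose with RLE scaling, without the b2 set of day 0 or without the day 5 set. Without each set's top Nanog cell 3 fell and 1 rose. The levels of Nanog and Sall4 at day 7 were the ones nearest to or above those of day 0.

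A list of 38 genes of the native pluripotency network was set beside Nanog, with its regulators, partners in binding and reported targets. Of these, 31 rose at day 7 against day 0 in edgeR and 0 fell (3.55% of all genes rose). Leaving out 1 set at a time gave 29 to 31, while all 10 sums gave 22 and the prefix as a block, without day 4, gave 20. The median log2 fold change was 9.71 over the list and 0.00 over all genes tested, and many members had no count at day 0, so that median depends on the prior count. Pou5f1, which encodes Oct4, was at 86.1 CPM at day 7, against 0.0539 and 0.0132 CPM at day 0. Dppa3 (Stella), a gene beside Nanog that protects methylation in the oocyte and zygote, was at 531 CPM at day 7 against 0 counts in both day 0 sets. Between day 7 and day 5, 0 of the 38 genes passed in edgeR, where 0.554% of all genes did, so that the count says nothing particular of the list. The members that did not pass at day 7 against day 0 were Klf4, Klf5, Nr5a2, Zfp281, Tcf7l1, Stat3 and Smad1. Not all of the list was silent at the start: 9 of its 38 genes, Klf4, Tbx3, Tet2, Trim28, Zfp281, Mybl2, Tcf7l1, Stat3 and Smad1, had 1 TPM or more in at least 25% of the cells of every set, day 0 included.

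The partner list of 16 genes, mostly subunits of the NuRD repressor complex that Nanog protein is known to bind, was tested in the same way. At day 7 against day 0, 2 of 16 rose and 0 fell, where 3.55% of all genes rose, and 1 of 16 rose with all 10 sums, with the prefix as a block or without the b2 set of day 3. Arid3b, a DNA-binding factor, was at 69.9 CPM at day 7 against 0.0359 and 0.728 CPM, and Wdr5, a subunit of histone methyltransferase complexes, was at 117 CPM against 23.4 and 30.9. Their log2 fold changes were 7.46 ± 1.08 and 2.10 ± 0.62 (edgeR adjusted p = 7.52e-10 and 0.0153).

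The genes with which Nanog varied were looked at next. Spearman's rho between the TPM of Nanog and that of each other gene was computed over the cells of a set, for genes with 1 TPM or more in at least 25% of them. Cells of a set share a day and a title prefix, so rho is given as a description with no p.

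In the sets up to day 4 every cocktail gene measured had a positive rho, and Esrrb stood first of all genes in 2 of these 6 sets. In the 20 b1 cells of day 0 Esrrb was at 0.576, rank 39 of 10534 genes, where the highest rho of any gene was 0.776. In the b2 cells of day 0 (n = 54) Esrrb had the highest rho of 8670 genes, 0.596, Jdp2 had 0.525, Sall4 0.499 and Map2k6 0.473. At day 1 (n = 58) Esrrb was again first, of 10225 genes, with 0.611, followed among the factors by Jdp2 with 0.542 and Kdm2b with 0.489. In the b1 cells of day 3 (n = 61) Glis1 had 0.571, Esrrb 0.557 and Jdp2 0.438. In the b2 cells of day 3 (n = 58) Jdp2 had 0.490 and Map2k6 0.364, under Pitpna at 0.558, while Esrrb was at 0.237. At day 4 (n = 59) Kdm2b had 0.582, Glis1 0.550, Esrrb 0.548 and Jdp2 0.420, under Foxo3 at 0.626 and Rab7 at 0.615. The median over the factors measured was 0.468 in the 20 b1 cells of day 0, 0.486 in its b2 cells, 0.452 at day 1, 0.404 in b1 and 0.236 in b2 at day 3 and 0.548 at day 4, while the median over all genes lay between −0.0527 and 0.00957. Without the 2 highest and 2 lowest Nanog cells the factor median of day 0 b1 was 0.0731, so few cells carried it. In the other sets up to day 4 it was then between 0.238 and 0.494.

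In the late sets the order was another. Among the day 5 b2 cells (n = 79) Jdp2 was at −0.0171, Map2k6 at −0.0398 and Kdm2b at 0.160. At day 7 (n = 65) Map2k6 was at 0.0626 and Kdm2b at 0.0653, and Jdp2 was in too few cells to be measured. Esrrb and Sall4, the factors that also belong to the native network, kept values of 0.377 and 0.364 at day 5 and of 0.439 and 0.487 at day 7. The median over the factors was 0.160 at day 5 and 0.252 at day 7, from 5 and 4 genes. The mean of the late medians minus that of days 0, 1 and 3 was −0.203, but over Esrrb, Sall4 and Kdm2b, the factors measured in every set, the difference was −0.0177.

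Network genes had their higher values in the late sets. Up to day 4 their median rho with Nanog was no higher than 0.0409: it was −0.171 and −0.0261 in the b1 and b2 cells of day 0, 0.0378 at day 1, 0.0246 and 0.0409 in b1 and b2 at day 3, and −0.0190 at day 4. Between 9 and 30 of the 38 genes could be measured in these sets, and in none of them did a member reach 0.5. At day 5 the median was 0.420 over 32 genes, of which 10 had a rho of 0.5 or more, where 0.735% of all genes did. At day 7 it was 0.474 over 35 genes, of which 13 had a rho of 0.5 or more, where 1.71% of all genes did. The same limit was passed by 1.28% of genes in the 20 b1 cells of day 0, a set of few cells, and by 0.0577% in its b2 cells, 0.127% at day 1, 0.0474% and 0.0205% in b1 and b2 at day 3 and 0.183% at day 4. The mean of the 2 late medians was 0.466 above that of the 5 sets of days 0, 1 and 3, and the 2 sets of a day differed by an SD of 0.0728. Only 9 network genes were measured in every set, and over these the difference was 0.273.

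**Figure D2:**
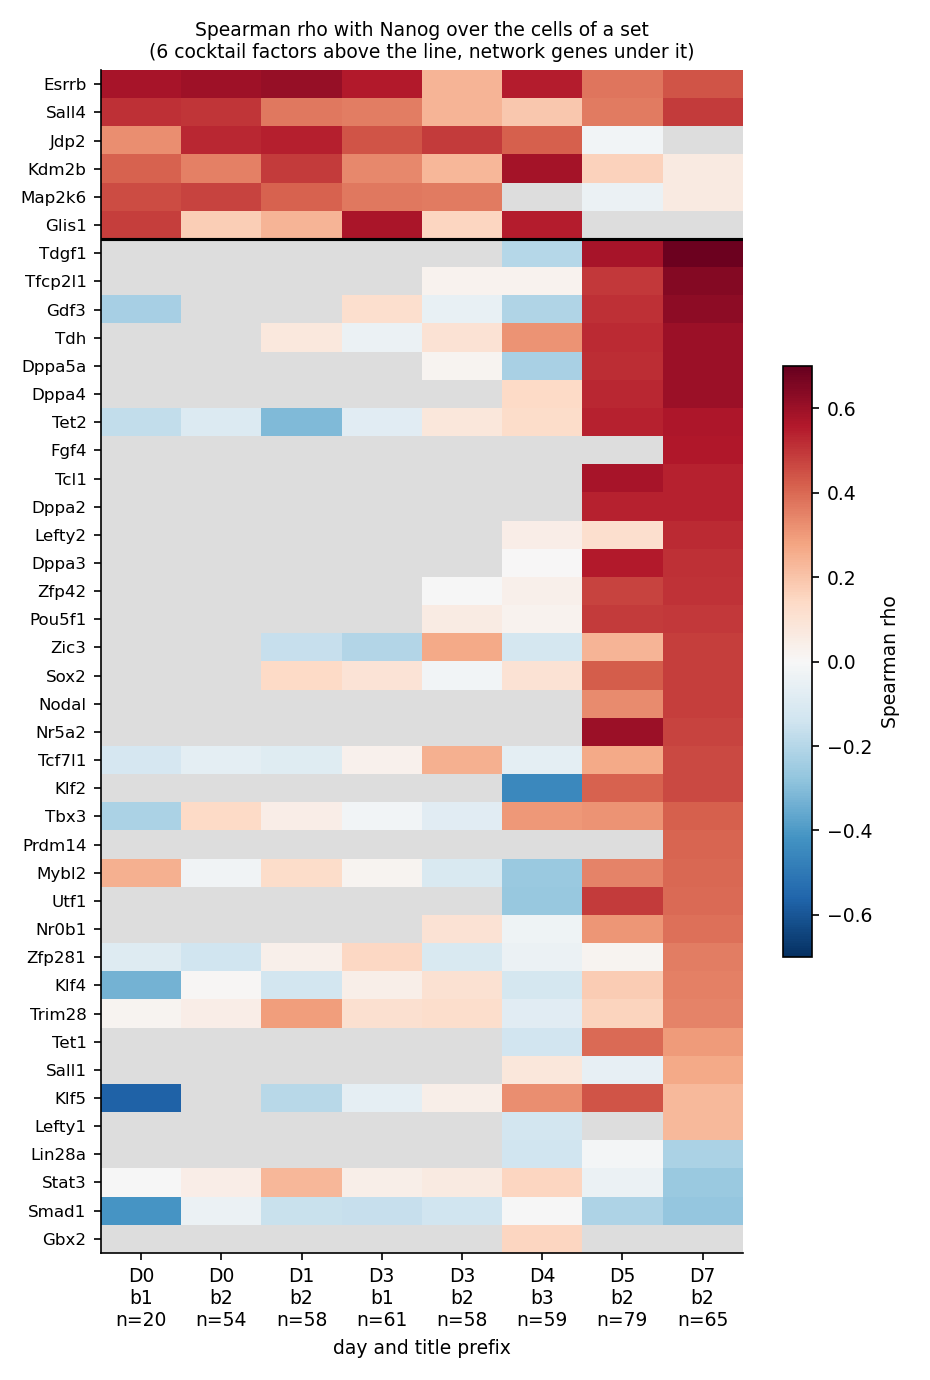
Spearman's rho with Nanog over the cells of each set for the 6 other cocktail genes, above the line, and the network genes, under it, in order of their value at day 7. Colours run from −0.7 to 0.7, and grey marks a gene with 1 TPM or more in fewer than 25% of the cells, as for most network genes before day 4.

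Among the regulators of Nanog, Pou5f1 and Sox2 had a rho of 0.491 and 0.426 at day 5 and of 0.498 and 0.485 at day 7. At day 4 they had been at 0.0240 and 0.103. Tfcp2l1, a factor of the naive state, was at 0.0241 at day 4, 0.496 at day 5 and 0.644 at day 7. Tet2, a methylcytosine dioxygenase, stood at −0.171 and −0.0969 in the day 0 sets and at 0.540 and 0.568 at days 5 and 7, with enough cells in every set for a value.

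Signalling genes followed. Tdgf1 (Cripto), the co-receptor of Nodal, was the network gene with the highest value at day 7, 0.688, after 0.576 at day 5 and −0.201 at day 4. Fgf4, the growth factor of the inner cell mass, had 0.562 at day 7. Lefty2, an inhibitor of Nodal, had 0.521 at day 7 and 0.116 at day 5. Dppa2, Dppa4 and Dppa5a, genes named for their expression in pluripotent cells, had 0.536, 0.599 and 0.601 at day 7 and 0.536, 0.529 and 0.516 at day 5. Not every member joined. Lin28a, which blocks let-7 maturation, was at −0.0141 at day 5 and −0.219 at day 7. Stat3, the effector of LIF, was at −0.0417 and −0.258, and Smad1, an effector of BMP signals, at −0.216 and −0.271.

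Genes that neighbour Nanog on chromosome 6 were looked at in RefSeq order (GRCm38.p6). Gdf3, a ligand of the TGF-beta family and the second coding gene upstream, had a rho of 0.513 at day 5 and 0.624 at day 7, against −0.213 at day 4. Dppa3, between Gdf3 and Nanog, had 0.554 and 0.510, against 0.0010. Slc2a3, the glucose transporter gene on the other side, had 0.214 and 0.471, against −0.296. Necap1, 4 coding genes downstream and active in every set, stayed between −0.0851 and 0.197 throughout. Rimklb, 6 coding genes upstream, had 0.210 at day 5 and 0.159 at day 7. The other 7 of the 12 neighbours were in too few late cells for a value. Gdf3 and Dppa3 are also members of the network list and were already counted in its values above.

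The genes most like Nanog at day 7, outside predicted, ribosomal, histone and mitochondrial genes, were Eif2s2, a subunit of a translation initiation factor (0.723), Zfp988 (0.721), Gstp2 and Gsta4, glutathione transferases (0.714 and 0.700), Jam2, an adhesion molecule (0.706), Zfp980 (0.698), Zfp534 (0.696), Mcf2 (0.693), Platr3, a long noncoding RNA (0.691), and Tdgf1. At day 5 they were Zfp640 (0.651), Morc1, a transposon silencer of male germ cells (0.648), Cbx7, a Polycomb subunit (0.642), Jade1 (0.637), Ckb, a creatine kinase (0.620), Zfp978 (0.616), AU018091 (0.609), Capsl (0.603), Mreg (0.596) and Nr5a2, a nuclear receptor (0.596). The lowest at day 7 were Akt1 (−0.582), Ssbp3 (−0.575), Zfp503 (−0.572), Ak3 (−0.564) and Dpysl2 (−0.560), and 0.221% of genes reached −0.5 or less. The lowest at day 5 were Gstm5 (−0.623), Lpar6 (−0.608), Fam199x (−0.572), Arf4 (−0.571) and B2m, the light chain of MHC class I (−0.538), where 0.149% of genes did. For the sets up to day 4 only the 5 highest genes were named, and the b1 cells of day 0 were left out. These sets gave scattered names beside the factors, such as Hn1 (0.564) in b2 at day 0 and Pcolce (0.560) at day 1. Others were Zzef1 (0.519) in b1 and Pitpna (0.558) in b2 at day 3, and Foxo3 (0.626) and Rab7 (0.615) at day 4.

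The 2 late sets resembled each other. Over the 8587 genes measured in both, the rho values of day 7 and day 5 correlated with a Pearson r of 0.599, a value across genes, which are not independent. Of the genes at 0.5 or more, 44 were shared, which is 64.7% of those of day 5 and 30.1% of those of day 7 among genes measured in both sets. Between day 7 and day 4 the same correlation was −0.191 over 8786 genes. Of these genes 118 were at 0.5 or more at day 7 and 16 at day 4. None was shared, which says little with so few genes. The early sets resembled each other less, with r from 0.0015 to 0.255 over their pairs without day 4.

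**Figure D3:**
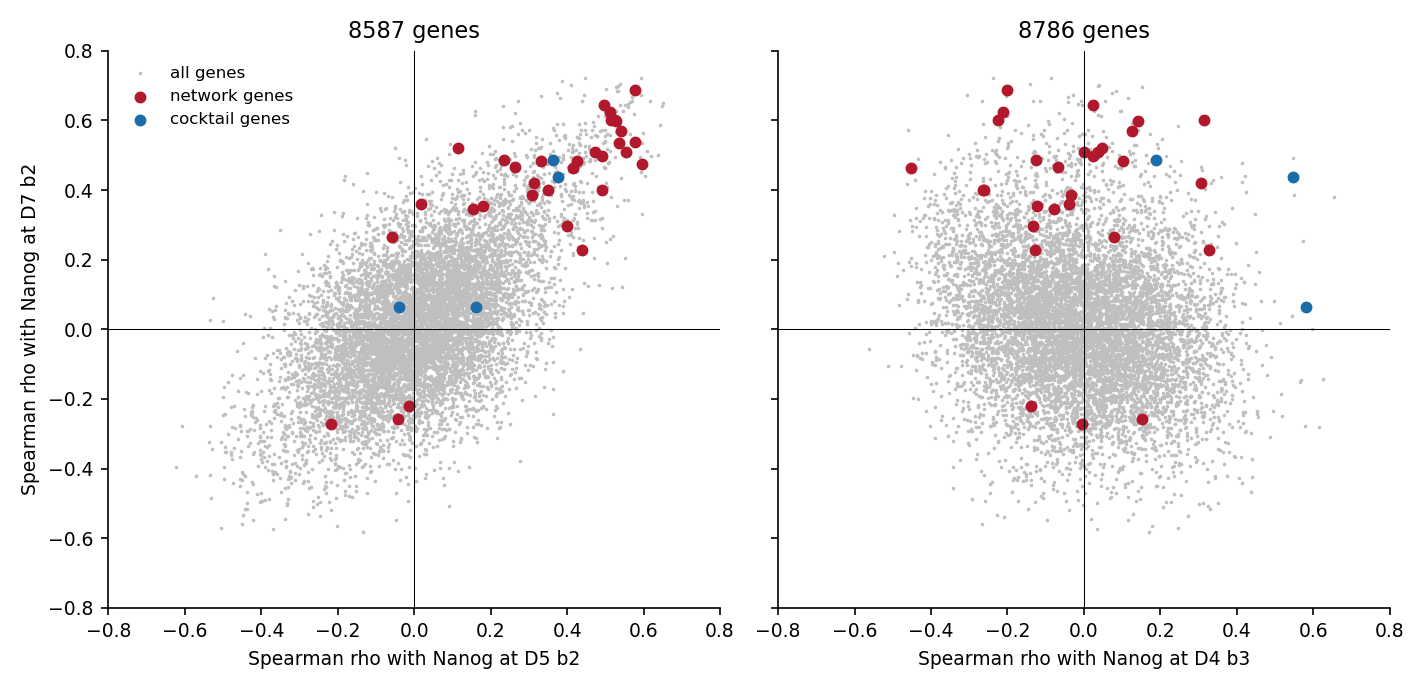
Spearman's rho with Nanog at day 7 (y axis) against that at day 5 (left) and at day 4 (right), with 1 grey point per gene, network genes in red and cocktail genes in blue. On the left the points rise together (Pearson r of 0.599 over 8587 genes). On the right the network genes other than Lin28a, Stat3 and Smad1 lie above 0 on the y axis. Their x values spread on both sides of 0, from −0.454 (Klf2) to 0.326 (Klf5).

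Among the 36 named genes at 0.5 or more on both late days, 10 were zinc finger genes in 1 stretch of about 2.00 Mb on chromosome 4, Rex2, Zfp534, Zfp600, Zfp978, Zfp980, Zfp981, Zfp982, Zfp985, Zfp987 and Zfp988. This group was picked after its values were seen, and its copies are alike enough in sequence to share reads, so the value of a single one is uncertain. The stretch held 14 coding genes of this kind in RefSeq, all of them in the table. Their median rho with Nanog was 0.0564 at day 4, 0.532 at day 5 and 0.647 at day 7, and all 14 were above 0.3 at day 5. The 14 include the 10 that marked out the stretch by their late values, so high values at days 5 and 7 are built in. Their summed level, which does not depend on how reads are shared inside the group, had a rho with Nanog of 0.169, 0.597 and 0.670 on these days. Chromosome 4 held 33.3% of the 33 genes that RefSeq places and 6.73% of all genes measured on both late days. Of the 11 genes behind that first share 10 were of this group, whose copies may share reads.

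The late sets were then looked at by kind of cell. Cells were divided at 10 TPM of Pou5f1, a limit set after the values were seen. Among the 33 day 5 b2 cells with 100 TPM or more of Nanog, 27 had Pou5f1 (81.8%, exact binomial 95% interval 64.5 to 93%), and among the 46 under that level 12 had it (26.1%, 14.3 to 41.1%). At day 7 the counts were 40 of 41 (97.6%, 87.1 to 99.9%) and 9 of 24 (37.5%, 18.8 to 59.4%). In earlier cells with 100 TPM or more of Nanog the share was lower. It was 0 of 13 and 0 of 37 in the day 0 sets, where a limit of 3 cells allows up to 23.1% and 8.11%, then 3 of 47 at day 1 (6.38%), 3 of 58 in b1 and 14 of 39 in b2 at day 3 (5.17% and 35.9%), and 18 of 50 at day 4 (36%). At day 3 b2 the cells under 100 TPM of Nanog held Pou5f1 about as often, in 8 of 19 cells (42.1%), whereas at day 4 it was in 0 of 9 such cells.

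Within the Pou5f1 cells alone the values were smaller. Over the 39 such cells of day 5 the network median was 0.218, and over the 49 of day 7 it was 0.206. Pou5f1 itself was at 0.223 and −0.0029 on these days, and Sox2 at 0.232 and 0.0276. Tdgf1 was at 0.232 and 0.472 in the Pou5f1 cells of days 5 and 7, Tfcp2l1 at 0.150 and 0.391, and Dppa5a at 0.514 and 0.256. Gdf3 was at 0.355 and 0.219 in the same cells. In the 40 day 5 cells without Pou5f1, Esrrb was at 0.610, Jdp2 at 0.577, Map2k6 at 0.368, Kdm2b at 0.272 and Sall4 at −0.219, and the network median was −0.0125. In the 16 such cells of day 7 Nanog had a median of 0.355 TPM, the cocktail median was 0.0276 and the network median was −0.0737. The cocktail median was 0.368 in the day 5 cells without Pou5f1 and −0.0366 in those with it, with Sall4 running the other way, at −0.219 and 0.280.

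**Figure D4:**
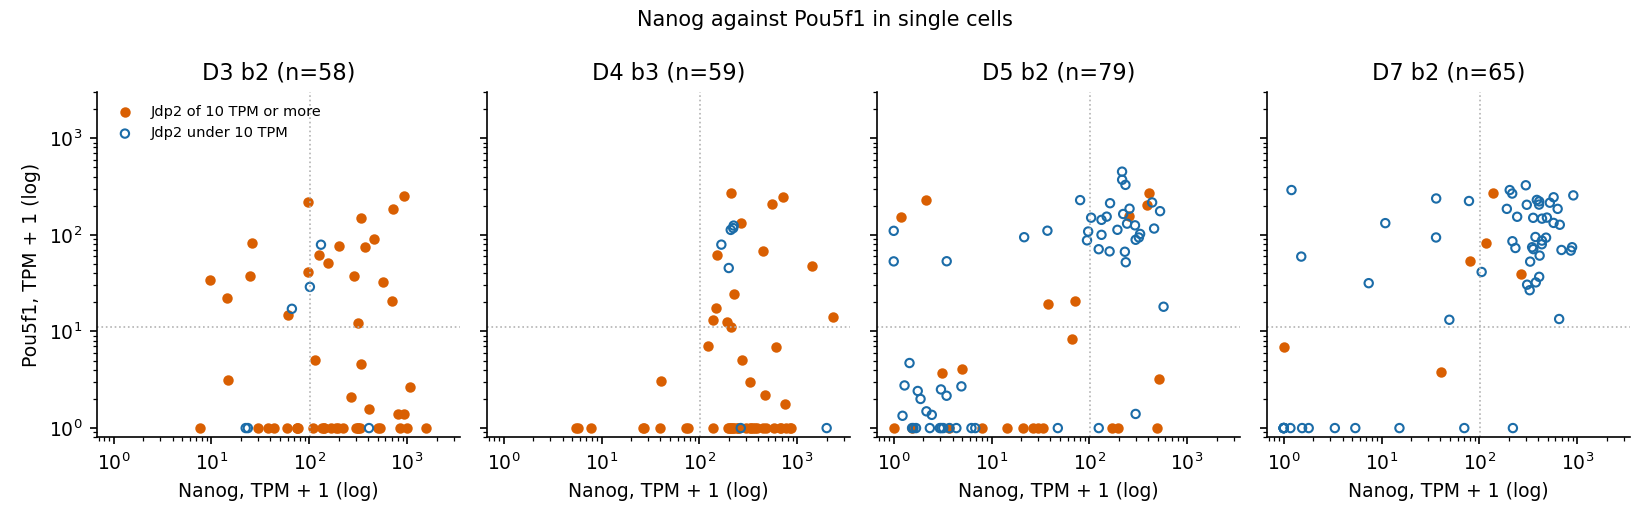
Nanog (x axis) against Pou5f1 (y axis), TPM plus 1 on log axes, in the cells of day 3 b2, day 4 b3, day 5 b2 and day 7 b2. Filled points have 10 TPM or more of Jdp2, open points less, and dotted lines mark 100 TPM of Nanog and 10 TPM of Pou5f1. At day 7, 40 of the 41 cells right of the vertical line lie above the horizontal one, against 14 of 39 at day 3.

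The same cells were divided by their Jdp2 and Map2k6 transcripts, whose source, introduced or chromosomal, was not tested. Of the day 5 b2 cells with 100 TPM or more of Nanog, 17 had Pou5f1 and neither Jdp2 nor Map2k6 at 10 TPM, 10 had Pou5f1 together with at least 1 of these factors, and 6 had a factor without Pou5f1. At day 7 these numbers were 25, 15 and 0 of 41 cells, with 1 cell that had none of the 3 genes. Of these 41 cells 12 had Map2k6 and 3 had Jdp2. At day 3 b2 they were 0, 14 and 25 of 39, and at day 4 they were 5, 13 and 30 of 50, with 2 cells that had none. Map2k6 reached 10 TPM in only 4 of the 59 day 4 cells, so the day 4 classes rest almost wholly on Jdp2. Cells without Nanog, under 1 TPM, numbered 13 at day 5 and 12 at day 7, and 3 and 2 of them had Pou5f1.

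Other markers moved with Nanog inside sets. The summed level of 15 fibroblast markers, all of them detected in some cell of every set, had a rho with Nanog of −0.335 at day 5 and −0.393 at day 7, with medians of 328 and 290 TPM and ranges of 33 to 6422 and 12.6 to 5897 TPM. Of the 15 markers 3 and 2 reached 1 TPM in at least 25% of the late cells. The same list was also negative earlier, at −0.268 and −0.131 in the b1 and b2 sets of day 0, −0.307 at day 1, −0.138 and −0.245 in b1 and b2 at day 3 and −0.149 at day 4. Values of like size were not particular to that list. At days 5 and 7 contractile fibroblast markers had −0.358 and −0.193, and trophoblast and primitive endoderm markers −0.307 and −0.320. Endothelial markers had 0.326 and 0.317, and macrophage markers 0.194 and 0.0669. The medians of these sums were 1.78 TPM or less. The 5 cell cycle markers summed had a rho with Nanog of 0.417 in the 20 b1 cells of day 0 and 0.339 at day 1. It was 0.0299 and 0.205 at days 5 and 7. The number of genes detected per cell had a rho with Nanog of −0.415 in the b1 cells of day 0 and −0.420 at day 4, against 0.0709 and 0.133 at days 5 and 7. With the number of genes and the total count held fixed, the late minus early difference of network medians was 0.454. The part of these markers in the late correlations was not tested otherwise.

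A last measure asked whether the transcripts that the authors' quantification credited to a gene changed in length. The expected count of a gene divided by its TPM follows the effective length used for it in that cell, and it was divided by the median of the same ratio over 1826 widely expressed genes. For Nanog this relative length had medians of 1.61 and 1.55 in b1 and b2 at day 0, 1.46 at day 1, 1.56 and 1.46 in b1 and b2 at day 3, 1.46 at day 4, 1.45 at day 5 and 1.45 at day 7, over 392 cells with 50 or more counts. All cells lay between 1.31 and 1.85. Late over early medians had a ratio of 0.95, and the spread over these cells was 5.50% of the mean, where 80.2% of 3221 genes had a larger one. In GENCODE M21 the 3 coding transcripts of Nanog are 1995 to 2211 bases long. With transcripts this alike the measure had little room to move, so its steady value cannot tell 1 source of Nanog from another.

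Esrrb, measured the same way, did move. Its relative length had medians between 0.865 and 0.978 in the sets of days 0 to 4, of 2.62 at day 5 and of 3.05 at day 7, and its 5 coding transcripts run from 1344 to 4300 bases. A limit of 1.5, set after the values were seen, was used to divide the cells. Of 57 day 5 b2 cells with 50 or more Esrrb counts, 32 were above it and 25 at or under it. Nanog reached 100 TPM in 25 of the 32 and in 6 of the 25, and Pou5f1 reached 10 TPM in 31 of the 32 and in 5 of the 25. At day 7, 43 of 49 cells were above the limit, 36 of them with 100 TPM or more of Nanog, and 2 of the other 6 had it. At day 4 only 4 of 53 cells were above it, all with high Nanog, as were 43 of the 49 others. Esrrb was not the only cocktail gene whose relative length moved. Sall4 had medians of 3.44 and 3.71 in b1 and b2 at day 0, 2.13 at day 4, 1.87 at day 5 and 1.91 at day 7. Map2k6 had medians of 0.760 and 0.703 in b1 and b2 at day 0, 0.697 at day 5 and 1.10 at day 7. The set medians of Jdp2 stayed between 1.02 and 1.14, and those of Kdm2b between 2.02 and 2.60. Whether the Nanog transcripts of a cell came from an introduced or the chromosomal gene was not tested.

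**Figure D5:**
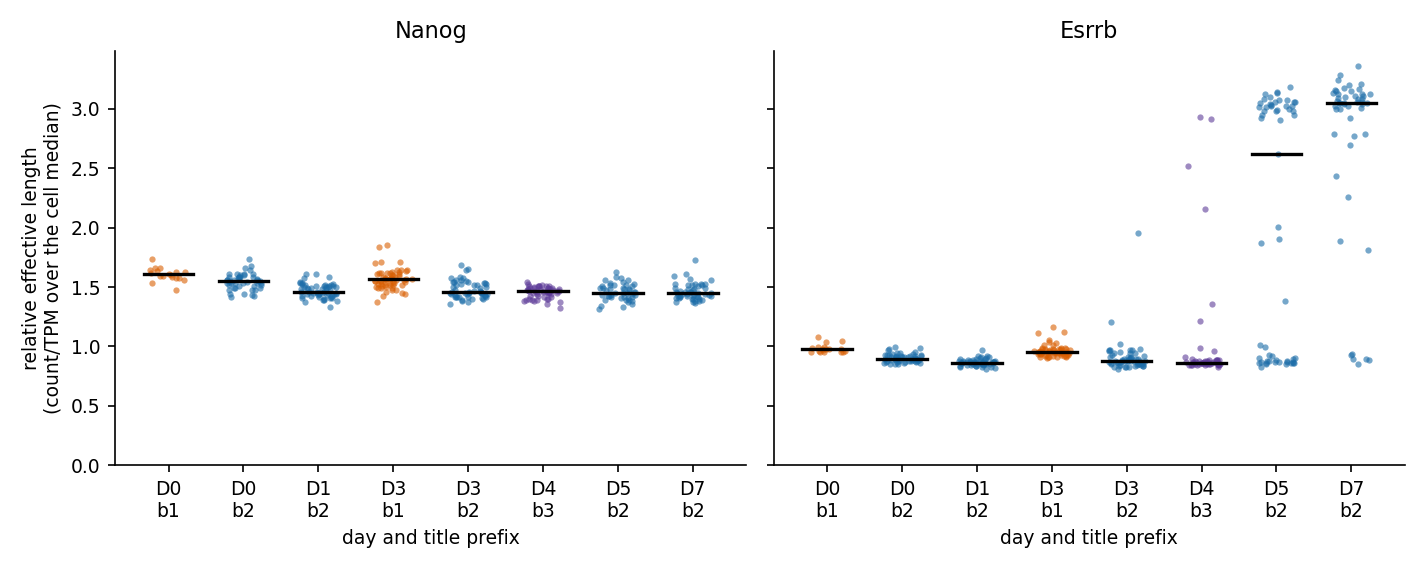
Relative effective length of Nanog (left) and Esrrb (right) in cells with 50 or more counts of the gene, by day and title prefix, with 1 point per cell and a bar at the median. Nanog stays between 1.31 and 1.85 in every set, while the median of Esrrb is under 1 up to day 4 and 3.05 at day 7.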

How the data were processed

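The authors' 2 deposited tables were used. Per the submitters' processing notes, bcl2fastq and RSEM 1.2.22 were used. For the aligner, build and annotation: not given in the sources used here. The deposited expected counts are RSEM estimates per gene and cell. The deposited TPM come from the same authors' quantification and sum to nearly the same total in every cell. Nanog, the gene lists, the rule for named genes, the limits and the tests were chosen with earlier results of these data known, and the limits of 10 and 100 TPM, the Pou5f1 division, the Esrrb length comparison and the zinc finger group after values were seen. The rule names the cocktail and list genes and the genes with the highest rho per set, outside the b1 set of day 0. For the late sets it also names those with the lowest rho. The lists beyond these, with 10 lineage genes and 8 cell type lists, were counted in the same way.

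Expected counts were summed per set and rounded. The 8 sets with 10 or more cells entered 1 edgeR 4.0.16 quasi-likelihood fit (TMM, filterByExpr by day, two-sided, 22378 genes, Benjamini-Hochberg threshold 0.05) on day, without a block. It had 2 residual degrees of freedom and infinite prior degrees of freedom, so the spread shared over genes stood in for that of Nanog itself. Sets of days with 1 set were assumed to vary like the others. P-values measure that shared spread between sets, not animals. Alternatives used DESeq2 1.42.0, limma 3.58.1 on log2(mean TPM + 1), counts thinned to 300000 a cell, and other limits. Scripts were tested on simulated data. Other software was R 4.3.3, numpy 2.4.6, pandas 2.3.3, scipy 1.17.1 and matplotlib 3.10.9.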

Additional observations from a re-analysis of the deposited data

Results flagged for a closer look

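The change of Nanog between day 3 and day 0 had opposite signs under the 2 title prefixes. It was 0.86 on the log2 CPM scale in the b1 sets and −0.56 in the b2 sets. Each prefix had 1 set per day, so the difference between the prefixes was not tested. Together the 4 sets gave 0.20 ± 0.37, which did not pass in edgeR.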

How the results depend on the processing

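The falls of Nanog at day 5 against day 0, at day 5 against day 3 and in the late against the early days kept their sign under every alternative run. Their calls were lost with all 10 sums (log2 fold changes −1.07, −1.30 and −1.09), with the prefix as a replicate block and without day 4 (−1.45, −1.60 and −1.12; adjusted p = 0.280, 0.547 and 0.141), and with limma on mean TPM (−1.28, −1.83 and −0.94; adjusted p = 0.432, 0.422 and 0.293). DESeq2 gave −1.55 and −1.74 without a call for the first 2, and the first was lost at −1.45 without each set's top Nanog cell. Leaving out 1 set at a time gave −1.77 to −1.26, −2.12 to −1.20 and −1.32 to −1.02. For the comparisons without a call, leaving out sets turned the sign in some cases, with ranges of −0.14 to 0.37 (day 1 against day 0), −0.33 to 0.58 (day 3) and −0.37 to 0.14 (day 4), and limma gave 0.34 for day 4. The cause was not tested.

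Same-numbered sets did not deviate together over genes (r = 0.0574 for b1 minus b2 at days 0 and 3). That value alone cannot show that the prefix carries no shift, and its meaning is not labelled. The relative length of Nanog was larger in b1 than in b2 at days 0 and 3, at 1.61 and 1.56 against 1.55 and 1.46. The block took the genes called at day 5 against day 0 to 274, against 1059. DESeq2 called 2203 there and all 10 sums 158. With the block, 20 of the 38 network genes rose at day 7 against day 0, against 31.

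The late minus early share of cells with Nanog was −16.3 percentage points, −26.6 at 10 TPM and −7.28 for any value above 0. The late minus early cocktail median of rho was −0.203, −0.335 with genes in 10% of cells, −0.110 without each set's 2 highest and 2 lowest Nanog cells and −0.0177 over members that pass in every set. The network difference was 0.466, and 0.273 over such members. The last 2 were chosen after seeing the data. Of 160 values of single sets under alternatives, 126 moved by less than their spread.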

Other observations

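A list of 10 lineage genes, mostly regulators that Nanog is known to restrain in embryonic stem cells, was also measured. Gata6, a regulator of primitive endoderm, was at 36.6 and 57.5 CPM in b1 and b2 at day 0 and at 13.8 and 14.6 CPM at days 5 and 7, and its rho with Nanog ran from −0.246 to 0.263 over the 6 sets up to day 4. T (brachyury), a mesoderm factor, was at 63.7 CPM at day 4, 34.6 at day 5 and 2.53 at day 7, and had a rho of −0.0746 with Nanog at day 4. Sox17, Cdx2 and Hnf4a, factors of endoderm and trophectoderm, stayed under 1 CPM in every set. Of the 10 genes 1 rose and 1 fell at day 7 against day 0 in edgeR, T and Pdgfra, where 3.55% of all genes rose and 3.05% fell. Pdgfra encodes a receptor and is also among the 15 fibroblast markers used above.

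The partner genes of Nanog showed no common direction within sets. Their median rho with Nanog lay between −0.0164 and 0.0992 over the 8 sets. Mta3, a NuRD subunit, had 0.339 and 0.341 at days 5 and 7, and Smarca4, the ATPase of the BAF complex, had 0.438 at day 1 and −0.251 at day 7. The summed level of 6 epithelial markers had a rho with Nanog of 0.181 at day 5 and 0.176 at day 7.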
